A study of Homo sapiens with 8 samples.

Results

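The effect of tumour necrosis factor (TNF) alone was measured in MH7A cells, human synoviocytes from a joint with rheumatoid arthritis that were made immortal and stand in for the fibroblasts of the joint lining. Of the 8 RNA libraries of the series, 4 belong to this comparison, chosen by their sample labels: 2 libraries of TNF-treated cells and 2 of mock cells. The TNF cells received TNF at 20 ng for 24 h, per mL in the design text and per microlitre in the treatment labels. The mock label names DMSO, while the design text describes untreated culture, and neither point was settled here. The other 4 libraries came from cells given 60 µM Tubuloside B (Tub B), a phenylethanoid glycoside, for 24 h, either alone or together with TNF. They lent their spread to the statistical model and supplied a second set of TNF-treated and TNF-free cells. All libraries are from a single line grown in culture, so nothing here speaks for other synovial cells.

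TNF is a cytokine made mainly by macrophages in the inflamed joint. It binds a pair of receptors, and the more widely expressed of them recruits the adaptor TRADD and kinases that free NF-κB and activate MAP kinases and the AP-1 transcription factors. In synovial fibroblasts the early result is a burst of chemokines, cytokines and matrix proteases, followed after some hours by interferon-stimulated genes through secreted interferon. Genes on the lists used here for such immune responses make up a small share of all genes that differed. They hold a larger part of the strong rises, 169 of the 692 genes raised at least 2-fold. The lists are not complete, and genes outside them, such as TLR3 and THEMIS2, can have immune roles too. Described here are mainly the other genes: genes that fell, receptors, transporters and channels, metabolic enzymes, transcription factors, and structural and signalling genes.

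Gene counts summed to 28035754 and 18041883 in mock replicates 1 and 2 and to 31937334 and 19975540 in TNF replicates 1 and 2. Differences between the 2 libraries of a group were larger in mock (chi-square per degree of freedom 5.22) than in TNF (2.49), Tub B (2.64) or TNF with Tub B (2.22). Of 16 synovial fibroblast markers on the list used 15 had enough counts to be tested, of which 8 rose and 3 fell. PRG4, a marker of the lining layer, had 9 and 2 counts in mock and 5 and 3 with TNF. The summed level of the list was 26000 and 30500 CPM in mock and 26500 and 27600 CPM in TNF libraries. Most of this sum came from COL1A1 and COL1A2 in each library. Levels are given in CPM, the count scaled by effective library size, and values are always given for replicate 1 and then replicate 2. Markers of macrophages summed to 3.09 to 3.89 CPM, of T cells to 1.22 to 2.20 CPM and of B cells to 1.28 to 1.58 CPM over the 4 libraries. TYROBP of the macrophage list and CD3D of the T cell list were at 0 counts in both groups, but other members had counts. CD14 had 35 and 26 counts in mock and 44 and 21 with TNF, and CD4 had 28 and 27 in mock and 29 and 16 with TNF. Endothelial markers summed to 5.47 and 5.53 CPM in mock and 8.56 and 10.6 CPM in TNF, and epithelial markers to 144 and 161 CPM in mock and 76.3 and 75.2 CPM in TNF. Most of the endothelial sum was TEK, its only called member, at 4.05 and 3.72 CPM in mock and 6.45 and 7.77 CPM with TNF. The part of these marker shifts in the results was not tested.

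TNF changed many of the expressed genes, most of them by a small amount. Of 16647 genes with enough counts, 5077 (30.5%) differed from mock at an adjusted p below 0.05 in edgeR, 2857 higher (17.2%) and 2220 lower (13.3%). Only 692 of the higher genes (4.16%) and 237 of the lower (1.42%) changed at least 2-fold, 277 and 20 at least 4-fold, and 126 and 3 at least 8-fold, while 1364 of the called genes moved by less than 1.2-fold. The balance between rises and falls depended on how libraries were scaled: library totals gave 2147 higher and 3474 lower, and upper-quartile scaling 2234 and 3356, since they shift the median gene by −0.07 on the log2 scale. DESeq2 called 1320 lower genes, 138 of them at least 2-fold, and without TNF replicate 1 edgeR called 1357.

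The lists of NF-κB targets, cytokines, interferon-stimulated, antigen presentation and complement genes held 218 of the tested genes, of which 194 rose and 1 fell. Outside these lists 2663 genes rose and 2219 fell among 16429, and 523 of the rises were at least 2-fold. Genes with large changes had lower mock levels than most genes. The median mock level was 1.97 CPM for genes lowered at least 2-fold and 2.36 CPM for genes raised at least 2-fold, against 14.5 CPM for all genes tested. For raised genes mock is the lower group by selection, so this median does not give the counts behind their rises. Among 678 long noncoding RNA genes, 50 rose and 74 fell, and among 13428 protein-coding genes 2635 rose and 2014 fell. Library kits that do not keep strand leave a noncoding gene and its overlapping neighbour inseparable.

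**Figure D1:**
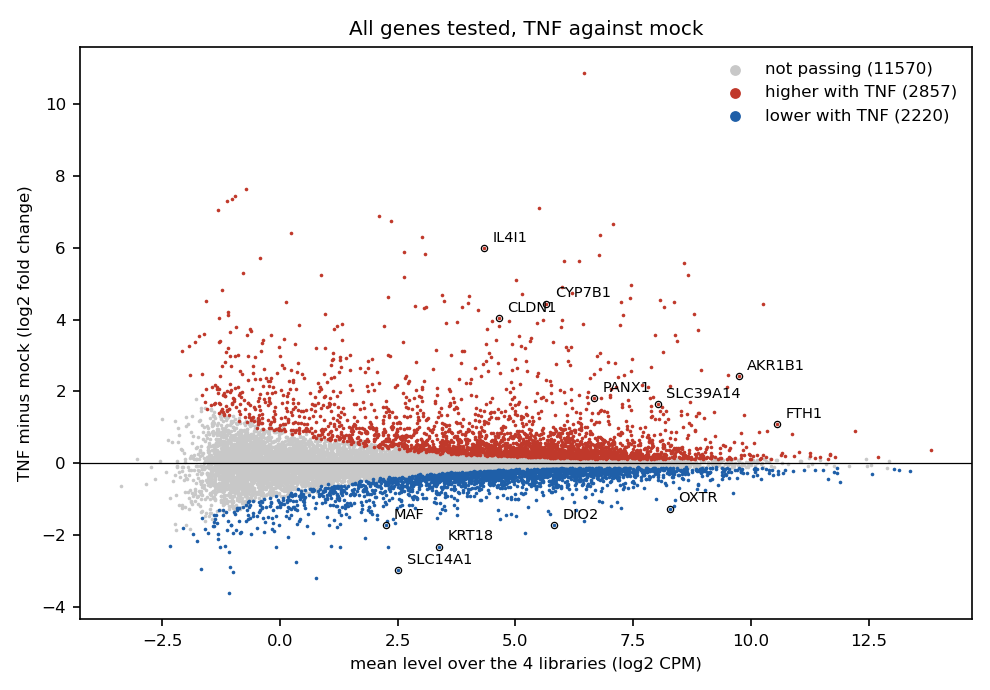
Each point is 1 of the 16647 genes tested, with its mean level over the 4 libraries (log2 CPM, x axis) against the log2 fold change of TNF over mock (y axis), coloured by whether it was called higher (2857), lower (2220) or neither. Rises reach much further than falls, and SLC14A1, KRT18 and MAF lie in the low range of expression while FTH1, AKR1B1 and OXTR lie in the upper range.

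Among genes with a mean of 5 CPM or more in mock and no overlap between groups, those that fell most encode a mixture of transporters, a keratin, surface receptors, a hormone-activating enzyme and regulators of transcription. SLC14A1, a urea transporter, stood at 10.2 and 10.0 CPM in mock and 1.32 and 1.22 CPM with TNF (log2 fold change −2.98 ± 0.16, adjusted p = 6.41e-11). KRT18, a keratin of simple epithelia, went from 15.1 and 20.0 CPM to 3.83 and 2.87 CPM (−2.33 ± 0.19, adjusted p = 2.01e-08). ABCA8, a lipid transporter of the ABC family, went from 6.58 and 4.74 CPM to 1.49 and 1.17 CPM (−2.08 ± 0.21, adjusted p = 4.32e-07). In each of these genes both mock libraries were well above both TNF libraries. The groups' CPM did not overlap in 63.2% of all genes tested, higher with TNF in 31.9% and lower in 31.3%, and non-overlap was a condition for naming a gene by the size of its change.

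DIO2, the deiodinase that makes the active thyroid hormone, went from 72.0 and 101 CPM to 24.6 and 27.2 CPM (−1.73 ± 0.12, adjusted p = 1.53e-09). SAMD11, a gene with a SAM domain, went from 48.7 and 68.8 CPM to 14.2 and 16.1 CPM (−1.95 ± 0.13). In both genes mock replicate 2 was higher than mock replicate 1, and both lay above the TNF libraries. TNFRSF10D encodes a decoy receptor for the death ligand TRAIL that lacks a working death domain, and it went from 145 and 122 CPM to 47.6 and 38.7 CPM (−1.62 ± 0.08, adjusted p = 2.14e-11). It was the only gene of the 20 largest falls above 100 CPM in both mock libraries. CHRM2, a muscarinic acetylcholine receptor, went from 7.32 and 9.30 CPM to 2.35 and 2.93 CPM (−1.66 ± 0.18). UNC5B, a netrin receptor, went from 43.2 and 51.1 CPM to 16.6 and 17.2 CPM (−1.47 ± 0.09), with the TNF libraries close to each other. CDH6, a cadherin of cell contacts, went from 18.4 and 21.0 CPM to 7.17 and 7.24 CPM (−1.44 ± 0.11). The groups were apart in all of them, as the naming rule required. The remaining genes of the 20 largest falls, with a mean of 5 CPM or more in mock, were CSDC2, MAF, EPHB6, RGCC, CSRNP3, KCNN2, SLC38A11, LBH, SAMD5, PLEKHA6 and SYPL2, and their falls lay between −2.34 ± 0.21 for CSDC2 and −1.43 ± 0.12 for SYPL2.

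**Figure D2:**
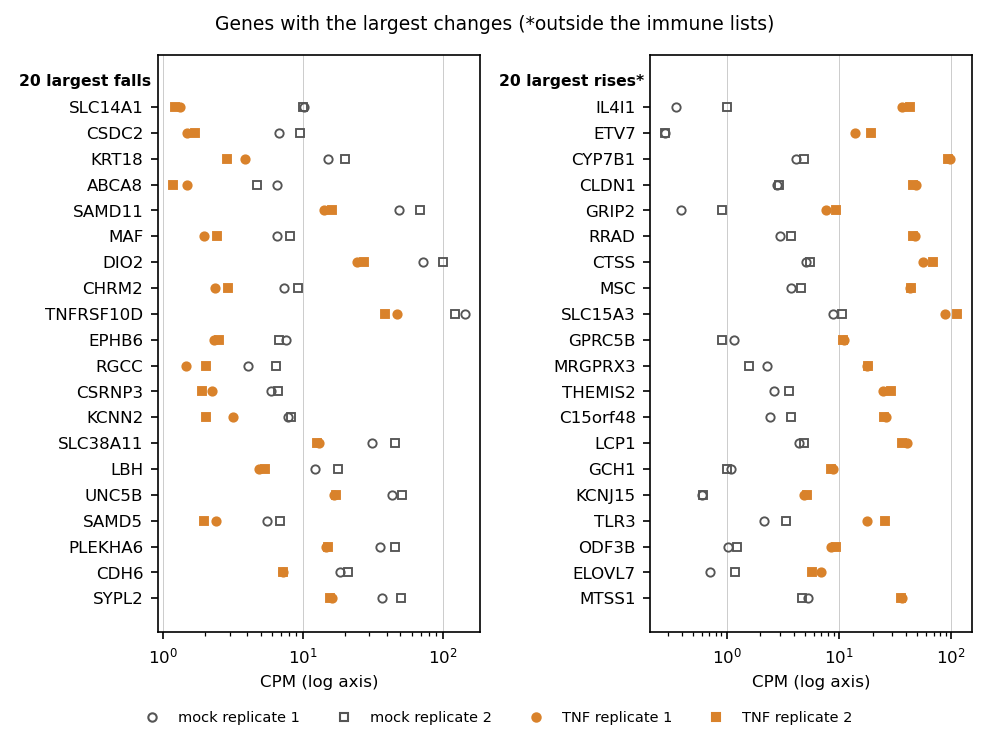
Levels in CPM (log axis) of the 20 genes with the largest falls (left) and the 20 with the largest rises outside the immune lists (right) among genes with a mean of 5 CPM or more in the higher group, in mock (open) and TNF libraries (filled), with circles for replicate 1 and squares for replicate 2. In every gene shown the mock and TNF libraries fall on opposite sides of a gap, which the naming rule required.

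The same stimulus was also given to cells that received Tub B, and those 4 libraries are not among the mock and TNF libraries, although the fit shares 1 estimate of the spread. In TNF with Tub B against Tub B, 4397 genes were called (26.4%), 14.3% of genes higher and 12.1% lower. Of the 237 genes lowered at least 2-fold by TNF alone, 219 had a lower mean there too, 132 (55.7%) were called lower and 1 was called higher. Of the 523 genes raised at least 2-fold outside the immune lists, 501 were higher and 330 (63.1%) were called higher. The size of the TNF effect differed with Tub B at an adjusted p below 0.05 for 16 of the 237 and 98 of the 523. Over all genes the share was 4.23%. Both sets, and the 12 genes below, were chosen for their change with TNF alone, which is part of this difference. Their counts therefore cannot be compared with the share of all genes. Among the 12 most lowered genes under the same limits of level and overlap, all were also called lower with Tub B present, from −2.63 ± 0.21 for SLC14A1 and −2.32 ± 0.16 for SAMD11 to −0.48 ± 0.08 for TNFRSF10D. TNFRSF10D was the only gene of the 12 whose difference between the effects passed the test (difference 1.14 ± 0.11, adjusted p = 8.79e-06).

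Over all genes tested 17.2% rose and 13.3% fell, and the counts of every list below are to be read against these shares. Genes of surface receptors changed in both directions. Cytokine receptor genes rose more often than they fell, and receptor tyrosine kinase genes fell more often than they rose. Of 40 tested cytokine receptors 16 rose, 5 fell and 19 did not pass (median log2 fold change 0.10, against −0.0028 for all genes). Of 46 tested receptor tyrosine kinases 8 rose, 19 fell and 19 did not pass (median −0.23). With library totals the counts were 15 and 7 for the former and 6 and 21 for the latter.

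IL15RA, the chain that presents interleukin 15 to neighbouring cells, went from 5.01 and 5.07 CPM to 32.3 and 36.6 CPM (2.77 ± 0.10, adjusted p = 5.09e-13). IL7R, a chain shared by the receptors for interleukin 7 and TSLP, went from 143 and 158 CPM to 343 and 360.2 CPM (1.23 ± 0.05). IFNGR2, a signalling chain of the interferon γ receptor, went from 37.2 and 40.4 CPM to 71.3 and 78.7 CPM (0.95 ± 0.07). None of these overlapped between mock and TNF, which the naming rule required. IL1RAP, the accessory chain of the interleukin 1 receptor, also rose (0.96 ± 0.16), as did IL4R, the interleukin 4 receptor chain (0.66 ± 0.06). The only fall past 2-fold on the list was that of IL20RA, a receptor chain for interleukins of the interleukin 10 family, at 0.924 and 0.789 CPM in mock and 0.496 and 0.213 CPM with TNF (−1.17 ± 0.42, adjusted p = 0.0426), a low-count gene picked out after its values were seen. The other falls above 5 CPM included receptors of the interleukin 6 family. IL6R went from 9.74 and 9.59 CPM to 4.66 and 5.48 CPM (−0.95 ± 0.12, adjusted p = 9.03e-06), IL11RA went from 13.6 and 14.7 CPM to 8.99 and 10.0 CPM (−0.58 ± 0.10), and LIFR, the receptor for leukaemia inhibitory factor, went from 29.4 and 28.2 CPM to 22.1 and 20.8 CPM (−0.42 ± 0.08). OSMR and IL6ST, members of the same family picked out after their values were seen, rose (0.58 ± 0.05 and 0.14 ± 0.04, the latter with adjusted p = 0.0184). IL1R1, the signalling interleukin 1 receptor, was at 54.1 and 56.2 CPM in mock and 45.6 and 46.1 CPM with TNF (−0.26 ± 0.07, adjusted p = 0.00555), and it did not pass without TNF replicate 1.

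Among receptor tyrosine kinases the lowered genes included Eph receptors, which bind membrane-bound ephrins on neighbouring cells. EPHB6 went from 7.64 and 6.77 CPM to 2.31 and 2.50 CPM (−1.60 ± 0.18, adjusted p = 1.51e-06) and EPHB3 from 9.70 and 9.25 CPM to 5.09 and 4.26 CPM (−1.001 ± 0.15), and the ephrin ligand gene EFNB2 went from 15.2 and 15.8 CPM to 6.45 and 6.23 CPM (−1.28 ± 0.11). EPHB1 moved the other way, from 8.49 and 8.91 CPM to 12.2 and 14.3 CPM (0.60 ± 0.12). PDGFRB, the receptor for platelet-derived growth factor that marks mesenchymal cells, was at 164 and 197 CPM in mock and 119 and 119 CPM with TNF. DDR1, a collagen receptor, fell (−0.53 ± 0.08), and so did ROR1, a receptor for WNT5A (−0.44 ± 0.09). EGFR, the receptor of epidermal growth factor, rose from 299 and 298 CPM to 390.2 and 399 CPM (0.40 ± 0.04, adjusted p = 6.41e-07), with all 4 libraries close to their group's mean. STYK1, RET and TEK rose from low levels, RET for example from 3.73 and 4.004 CPM to 6.55 and 8.09 CPM (0.91 ± 0.15).

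Of 23 genes of the TNF receptor family 10 rose, 3 fell and 10 did not pass (median 0.16), and 10 and 5 under library totals. TNFRSF1A, the widely expressed TNF receptor, rose slightly, from 123 and 128 CPM to 142 and 147 CPM (0.20 ± 0.05, adjusted p = 0.00287). TNFRSF1B, the inducible TNF receptor, went from 3.20 and 3.55 CPM to 7.67 and 6.76 CPM (1.12 ± 0.15, adjusted p = 1.52e-05). TNFRSF14, the receptor for LIGHT, rose (0.85 ± 0.07), as did CD40 (0.69 ± 0.13), the TRAIL receptor TNFRSF10A (0.69 ± 0.12) and the adaptor TRADD (0.70 ± 0.07). TNFRSF21, also called death receptor 6, fell from 41.3 and 40.8 CPM to 22.6 and 23.0 CPM (−0.85 ± 0.07). TNFRSF10A went from 9.92 and 7.39 CPM to 14.4 and 14.2 CPM, the opposite direction to the decoy TNFRSF10D.

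The promoter of TNFRSF1B is shown because it carries a match to the interferon-stimulated response element (ISRE), searched on both strands as GAAA, any 2 bases and GAAA, directly before the start site. The sequence is RefSeq's, chr1:12166741-12166990 in GRCh38.p14 on the plus strand, 250 bases ending at the base before the start, and capitals mark the match, which lies on the minus strand from position −10.
TNFRSF1B: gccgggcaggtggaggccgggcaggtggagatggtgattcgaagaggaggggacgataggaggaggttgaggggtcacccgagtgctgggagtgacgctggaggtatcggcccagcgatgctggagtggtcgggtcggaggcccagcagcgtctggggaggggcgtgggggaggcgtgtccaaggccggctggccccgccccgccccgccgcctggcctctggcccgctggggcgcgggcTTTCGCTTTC
Of the 11503 tested genes with a promoter entry, 2.45% held this motif, as did 31.5% of 127 genes raised at least 2-fold on the immune lists, 6.46% of 294 such genes outside them and 3.52% of 142 genes lowered at least 2-fold. In all 27305 RefSeq promoters the share was 3.07%. A match is a description of letters and no evidence of binding.

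Of 106 G protein-coupled receptors 33 rose, 20 fell and 53 did not pass (median 0.11), with 26 and 24 under library totals and 11 lower without TNF replicate 1. BDKRB1, the inducible bradykinin receptor, went from 5.72 and 6.597 CPM to 37.1 and 35.7 CPM (2.58 ± 0.09, adjusted p = 2.64e-13). S1PR3, a receptor for sphingosine 1-phosphate, went from 66.1 and 77.5 CPM to 175 and 181 CPM (1.32 ± 0.06). PTGIR, the prostacyclin receptor, went from 22.7 and 18.4 CPM to 49.3 and 51.7 CPM (1.28 ± 0.09). Both TNF libraries were at about the same level in each of these genes. GPRC5B, an orphan receptor, rose from a low level, from 1.17 and 0.902 CPM to 11.2 and 11.02 CPM (3.38 ± 0.21). Receptors for oxytocin and for proteases were among those that fell. OXTR, the oxytocin receptor, went from 368 and 509.6 CPM to 178 and 185 CPM (−1.27 ± 0.11, adjusted p = 4.57e-08), with mock replicate 2 the highest library. The protease-activated receptors F2R and F2RL1, which thrombin and trypsin-like proteases cleave, both fell: F2R from 81.4 and 87.9 CPM to 41.3 and 44.5 CPM (−0.98 ± 0.06) and F2RL1 from 8.10 and 7.67 CPM to 3.27 and 3.46 CPM (−1.24 ± 0.14). GPRC5A, an orphan receptor related to GPRC5B, fell from 192 and 195 CPM to 90.0 and 94.9 CPM (−1.07 ± 0.05, adjusted p = 2.26e-12).

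Guidance receptors and ligands, known from axon growth and vessel patterning, had 16 members higher and 10 lower of 52. NRP2, a co-receptor for class 3 semaphorins and for VEGF-C, went from 7.85 and 7.33 CPM to 42.3 and 44.8 CPM (2.51 ± 0.08, adjusted p = 1.09e-13), and its ligand gene SEMA3C went from 172 and 187 CPM to 392.01 and 408 CPM (1.16 ± 0.05). SEMA3B and SEMA3D, which encode other class 3 semaphorins, fell (−1.01 ± 0.09 and −0.63 ± 0.11). Integrins had 6 higher and 6 lower of 19. The collagen-binding subunits ITGA1 (0.68 ± 0.07) and ITGA2 (0.72 ± 0.04) and the vitronectin receptor subunits ITGAV (0.36 ± 0.05) and ITGB3 (0.76 ± 0.09) rose, whereas ITGA11 (−0.69 ± 0.13), a collagen-binding subunit of fibroblasts, and ITGA7 (−0.47 ± 0.07), a laminin-binding subunit, fell. Among lipoprotein and scavenger receptors, 4 rose and 6 fell of 22 (2 and 9 under library totals). OLR1, the receptor for oxidised LDL, went from 5.01 and 6.65 CPM to 25.9 and 28.0 CPM (2.24 ± 0.12). Without TNF replicate 2 the scavenger receptor counts were 2 higher and 3 lower.

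**Figure D3:**
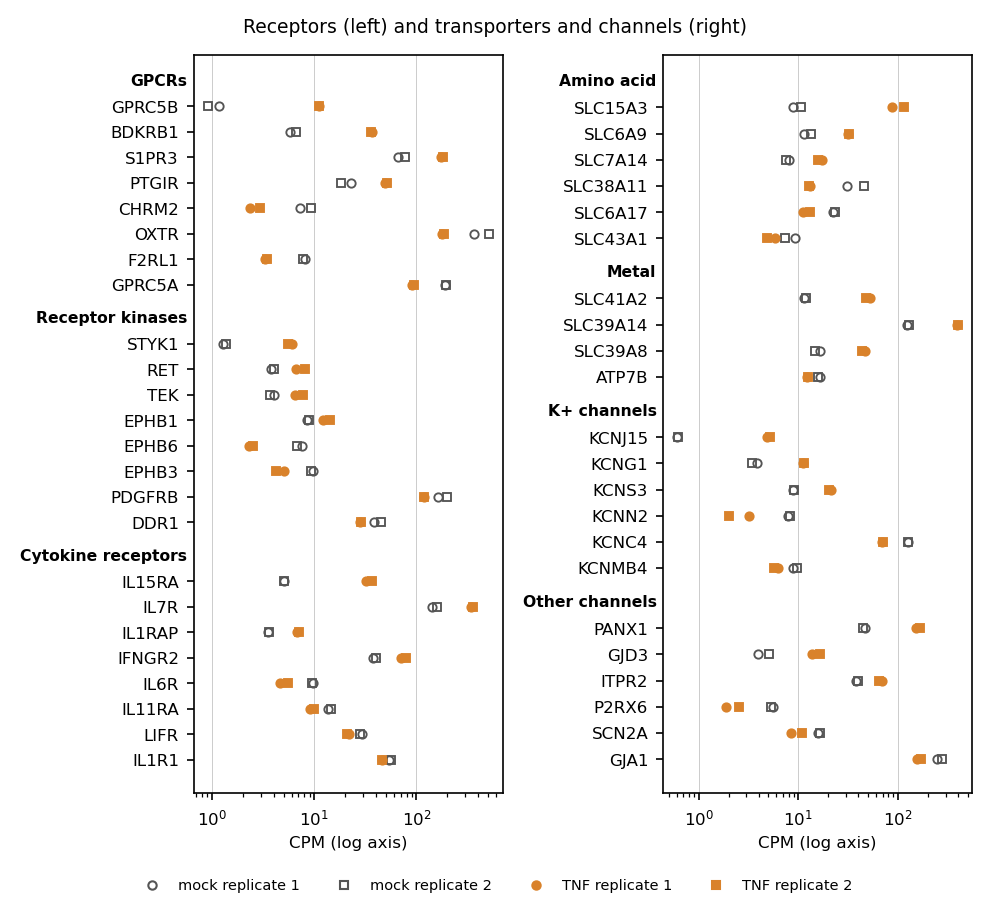
Levels in CPM (log axis) of the reported members with the largest changes among receptor lists (left) and transporter and channel lists (right), in mock (open) and TNF libraries (filled), with circles for replicate 1 and squares for replicate 2. Within each list the genes that rose come before those that fell, for example BDKRB1 and S1PR3 above OXTR and F2RL1.

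Transporters of metals rose more often than they fell. Of 29 tested members, which move zinc, iron, magnesium, copper and manganese, 10 rose, 2 fell and 17 did not pass (median 0.11), and 8 rose and 3 fell with library totals. SLC39A14, an importer of zinc, iron and manganese, went from 124 and 128 CPM to 389 and 399 CPM (1.64 ± 0.04, adjusted p = 8.31e-15). SLC39A8, its close relative, went from 16.6 and 14.6 CPM to 46.5 and 43.8 CPM (1.53 ± 0.08), and SLC41A2, a magnesium transporter, went from 11.4 and 11.8 CPM to 51.8 and 48.0 CPM (2.11 ± 0.08). In all 3 genes the TNF libraries were over 2-fold above both mock libraries. SLC11A2, which carries iron out of endosomes, rose from 41.0 and 39.6 CPM to 72.0 and 73.5 CPM (0.85 ± 0.05), and SLC30A1, a zinc exporter of the plasma membrane, rose by 0.50 ± 0.05. Of the 2 falls on the list, 1 was at least 2-fold. The copper pump gene ATP7B fell (−0.39 ± 0.09). Beside them FTH1, the heavy chain of the iron store ferritin, went from 894 and 1029 CPM to 1968 and 2103 CPM (1.08 ± 0.06, adjusted p = 3.70e-11). HMOX1, the inducible heme oxygenase, went from 53.5 and 59.3 CPM to 81.3 and 87.0 CPM (0.58 ± 0.07), and SLC25A28, a mitochondrial iron carrier, from 22.6 and 19.9 CPM to 52.6 and 56.9 CPM (1.35 ± 0.09).

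Amino acid and peptide transporters had 10 members higher and 12 lower of 37 (8 and 16 under library totals), with 6 lower without TNF replicate 1. SLC15A3, a lysosomal transporter of histidine and small peptides, went from 8.85 and 10.6 CPM to 87.8 and 114 CPM (3.39 ± 0.12, adjusted p = 2.83e-13). SLC6A9, a glycine transporter, went from 11.3 and 13.3 CPM to 31.8 and 32.0 CPM (1.39 ± 0.09), and SLC1A4, a carrier of small neutral amino acids, went from 10.9 and 10.996 CPM to 19.6 and 18.998 CPM (0.82 ± 0.09). The groups were apart in all 3, and the same held for the transporters that fell, as the naming rule required. SLC38A11, a less studied member of the SLC38 family, fell from 31.1 and 45.4 CPM to 13.0 and 12.7 CPM (−1.55 ± 0.13). SLC7A8, an exchanger of large neutral amino acids, fell from 60.7 and 68.0 CPM to 41.3 and 45.0 CPM (−0.58 ± 0.07). SLC6A17, a vesicular transporter of neutral amino acids, fell from 22.3 and 23.2 CPM to 11.1 and 13.1 CPM (−0.92 ± 0.09).

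Sugar transporters had 4 higher and 4 lower of 20 (3 and 6 under library totals), or 20% each way, against 17.2% and 13.3% of all genes. SLC2A1, the main glucose importer of most cells, was at 52.4 and 56.3 CPM in mock and 53.6 and 51.1 CPM with TNF (−0.04 ± 0.07, adjusted p = 0.672), and the groups overlapped. SLC2A6, a glucose transporter family member of lysosomes, went from 45.1 and 49.5 CPM to 134 and 135 CPM (1.52 ± 0.07, adjusted p = 3.20e-12), and SLC2A3, a high-affinity glucose importer, fell from 43.5 and 45.1 CPM to 32.8 and 34.7 CPM (−0.39 ± 0.06). SLC16A3, which exports lactate, rose from 403 and 400.0 CPM to 639 and 645 CPM (0.68 ± 0.05). SLC2A1 thus showed no call and SLC2A3 a fall, while the lactate exporter rose. SLC22A4, a carrier of ergothioneine and other organic cations, rose from 24.5 and 22.7 CPM to 50.9 and 50.6 CPM (1.10 ± 0.07). Mitochondrial carriers had 6 higher and 7 lower of 46 (13.0% and 15.2%), with 6 and 14 under library totals. ABC transporters had 6 and 6 of 36 (16.7% each), with 4 and 10 under library totals. Both lists were near the shares of all genes. The cholesterol exporter gene ABCA1 was at 33.2 and 32.5 CPM in mock and 35.3 and 35.9 CPM with TNF (0.11 ± 0.07, adjusted p = 0.277), whereas ABCC3, an exporter of organic anions, rose from 40.5 and 49.3 CPM to 65.6 and 65.8 CPM (0.56 ± 0.07).

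Ion channels changed in both directions. Potassium channels had 11 higher and 9 lower of 36 (11 and 11 under library totals), and other channels 21 and 17 of 91 (18 and 21 under library totals, and 10 lower without TNF replicate 1). Among potassium channels, KCNG1, a modifier subunit, rose from 3.87 and 3.44 CPM to 11.1 and 11.5 CPM (1.61 ± 0.13) and KCNS3, another modifier, from 8.74 and 9.13 CPM to 21.3 and 20.3 CPM (1.22 ± 0.09). Neither group had libraries far apart. KCNJ2, an inward rectifier, rose from a low level (1.12 ± 0.15). KCNC4, a fast delayed rectifier, fell from 127 and 126 CPM to 69.0 and 71.3 CPM (−0.86 ± 0.05, adjusted p = 1.16e-10), and KCNN2, a channel opened by calcium, fell from 7.82 and 8.18 CPM to 3.17 and 2.02 CPM (−1.56 ± 0.17). The pump ATP2B1, which expels calcium across the plasma membrane, rose from 250.4 and 272 CPM to 679 and 684 CPM (1.39 ± 0.05, adjusted p = 9.97e-14). KCNN2 had the widest gap between its TNF libraries. GJA1, the connexin of most fibroblast gap junctions, fell from 248 and 278 CPM to 156 and 169 CPM (−0.69 ± 0.07). PIEZO1, a mechanically gated channel, rose from 870.1 and 852 CPM to 1274 and 1260.2 CPM (0.56 ± 0.04), and ITPR2, a calcium release channel of the endoplasmic reticulum, rose from 37.8 and 40.1 CPM to 69.4 and 64.7 CPM (0.79 ± 0.06).

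PANX1, which forms channels that release ATP, had a large and reproducible rise, from 46.2 and 44.5 CPM to 153 and 165 CPM (1.81 ± 0.05, adjusted p = 2.67e-14). Its promoter is shown because it holds a match to the NF-κB consensus, searched on both strands as GGGRNWYYCC. There R is A or G, N any base, W is A or T, and Y is C or T. The promoter is RefSeq's sequence of chr11:94128591-94128840 in GRCh38.p14, plus strand, the 250 bases before the start site, with the match in capitals from position −100, read on the minus strand.
PANX1: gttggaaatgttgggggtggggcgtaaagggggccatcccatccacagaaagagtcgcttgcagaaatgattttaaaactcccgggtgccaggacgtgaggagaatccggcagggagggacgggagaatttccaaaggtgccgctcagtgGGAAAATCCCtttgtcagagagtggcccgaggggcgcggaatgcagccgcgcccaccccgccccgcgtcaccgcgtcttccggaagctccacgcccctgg
The consensus was found in 6.05% of promoters of tested genes, 23.6% of those of genes raised at least 2-fold on the immune lists, 9.52% of those raised outside them and 5.63% of those lowered, and in 5.05% of all RefSeq promoters.

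In metabolism, genes for the breakdown of branched-chain and aromatic amino acids fell, with 1 member higher, 12 lower and 8 not passing of 21 (median −0.22). The split was the same under library totals and upper-quartile scaling, and 5 were lower without TNF replicate 1. HIBCH, an enzyme of valine breakdown, went from 14.3 and 14.8 CPM to 10.3 and 8.94 CPM (−0.58 ± 0.10, adjusted p = 1.78e-04). ALDH6A1, a later enzyme of the same pathway, went from 12.7 and 14.4 CPM to 9.02 and 10.0 CPM (−0.51 ± 0.10). DBT, the core subunit of the branched-chain keto acid dehydrogenase, went from 21.6 and 23.9 CPM to 17.5 and 17.5 CPM (−0.37 ± 0.09). Each fall was modest, and the groups did not overlap in these 3 genes, a condition for naming them. BCAT1, the cytosolic transaminase that starts the pathway, was the member that rose (0.27 ± 0.05). IL4I1, an oxidase of phenylalanine and other aromatic amino acids that is not on the list, showed the largest rise outside the immune lists among genes with a mean of 5 CPM or more with TNF, from 0.355 and 1.01 CPM to 36.7 and 42.9 CPM (6.00 ± 0.21, adjusted p = 1.54e-13).

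Of 27 glycolysis genes 14 rose, 2 fell and 11 did not pass (median 0.18), and 10 and 4 under library totals. ENO2, an enolase isoform, went from 22.0 and 19.2 CPM to 42.1 and 44.4 CPM (1.06 ± 0.08, adjusted p = 3.80e-09). PFKP, the platelet-type phosphofructokinase, went from 94.6 and 95.6 CPM to 135 and 134 CPM (0.50 ± 0.04), while PFKM, its muscle-type relative, fell from 87.8 and 84.2 CPM to 67.3 and 64.2 CPM (−0.39 ± 0.05). PFKFB3 (0.40 ± 0.05) and PFKFB4 (0.53 ± 0.08), which make the activator of phosphofructokinase, both rose. Citric acid cycle genes and their feeders had 1 higher and 6 lower of 29 (0 and 12 under library totals, and 3 lower without TNF replicate 2). PC, pyruvate carboxylase, fell from 12.5 and 10.7 CPM to 8.36 and 6.01 CPM (−0.67 ± 0.13). HIF1A, the oxygen-regulated factor that drives many glycolysis genes, was at 327 and 382 CPM in mock and 366 and 386 CPM with TNF (0.09 ± 0.06, adjusted p = 0.29), and it passed as higher without mock replicate 2.

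Of 87 nuclear genes of oxidative phosphorylation 2 were higher, 6 lower and 79 did not pass (median −0.07), although 29 were lower under library totals, and 1 was lower without TNF replicate 2. Of the 13 mitochondrially encoded genes of the same pathway 0 rose and 6 fell (median −0.12), with 10 lower under library totals and 3 without either TNF library. Mitochondrial transcripts took 3.54% and 3.63% of counts in mock and 3.10% and 3.12% with TNF. Cytosolic ribosomal protein genes had 2 higher, 47 lower and 34 not passing of 83 (median −0.15), with 68 lower under library totals and 23 without TNF replicate 2. None of the 47 fell by 2-fold, and copies of these genes may share reads, so single members are uncertain. Mitochondrial ribosomal protein genes had 3 higher and 12 lower of 76 (28 lower under library totals, 3 without TNF replicate 1, 2 without TNF replicate 2 and 7 without mock replicate 1).

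Several nucleotide salvage and breakdown enzymes rose, and the list of nucleotide metabolism had 15 higher and 6 lower of 39 (11 and 11 under library totals). TYMP, which splits thymidine, went from 6.68 and 6.37 CPM to 66.5 and 82.1 CPM (3.49 ± 0.10, adjusted p = 2.60e-14). SAMHD1, which degrades deoxynucleotides, went from 47.8 and 53.9 CPM to 274 and 328 CPM (2.57 ± 0.10). AMPD3, an AMP deaminase, went from 49.4 and 50.0 CPM to 173 and 178 CPM (1.82 ± 0.05, adjusted p = 3.96e-15). Each of these rises was over 3-fold in every TNF library against either mock library. PNP, the purine nucleoside phosphorylase, rose from 30.7 and 24.7 CPM to 54.1 and 51.9 CPM (0.92 ± 0.09), and ADA, the adenosine deaminase, fell from 9.35 and 12.4 CPM to 7.24 and 6.76 CPM (−0.60 ± 0.13). NAMPT, the enzyme that limits NAD salvage, went from 59.1 and 63.5 CPM to 121 and 125 CPM (1.01 ± 0.05), and QPRT, an enzyme of NAD synthesis from tryptophan, fell from 31.1 and 32.9 CPM to 21.8 and 24.96 CPM (−0.46 ± 0.08). WARS, the tryptophanyl-tRNA synthetase, rose from 97.0 and 100.3 CPM to 208 and 242 CPM (1.19 ± 0.06), whereas the list of tRNA synthetases had 3 higher and 7 lower of 35 (1 and 15 under library totals, and 4 lower without either TNF library).

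Polyamine genes moved in both directions. AMD1 and ODC1, the decarboxylases of polyamine synthesis, fell: AMD1 from 234 and 228 CPM to 154 and 150.01 CPM (−0.60 ± 0.04, adjusted p = 6.21e-09) and ODC1 from 130.4 and 114 CPM to 95.3 and 87.8 CPM (−0.42 ± 0.06). SAT1, the acetyltransferase that starts polyamine export and breakdown, rose from 52.4 and 47.0 CPM to 114 and 109 CPM (1.16 ± 0.06, adjusted p = 4.24e-11). The whole list of arginine, polyamine and biopterin enzymes had 7 higher and 8 lower of 24 (5 and 12 under library totals). The falls numbered 4 without TNF replicate 1 or mock replicate 1 and 5 without TNF replicate 2, and the rises 4 without TNF replicate 2. GCH1, the entry enzyme of tetrahydrobiopterin synthesis, rose from 1.10 and 1.01 CPM to 8.83 and 8.57 CPM (3.02 ± 0.18), and ASS1, which makes argininosuccinate, from 133 and 148 CPM to 194 and 196 CPM (0.47 ± 0.05).

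Enzymes of steroids, retinoids and aldehydes were divided, 13 higher and 12 lower of 48 (11 and 14 under library totals). CYP7B1, an oxysterol hydroxylase, went from 4.16 and 4.85 CPM to 98.2 and 94.9 CPM (4.44 ± 0.11, adjusted p = 1.49e-15). AKR1B1, an aldose reductase that also makes a prostaglandin, went from 265 and 272 CPM to 1462 and 1425 CPM (2.43 ± 0.04, adjusted p = 1.81e-17). In both genes the libraries of a group were close together. Several retinoid genes fell: ALDH1A1, a retinaldehyde dehydrogenase, fell from 393 and 503 CPM to 212 and 226 CPM (−1.03 ± 0.08), RDH10, a retinol dehydrogenase, from 186 and 227 CPM to 123 and 131 CPM (−0.69 ± 0.07), as well as CRABP2, which delivers retinoic acid to its receptors (−0.53 ± 0.07), and the retinoic acid hydroxylase gene CYP26B1 (−0.66 ± 0.11). STRA6, a receptor for retinol uptake, rose (1.11 ± 0.11).

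Lipid genes moved in both directions. Cholesterol synthesis had 7 higher and 2 lower of 24 (5 and 3 under library totals), with SQLE, the squalene epoxidase, at 40.9 and 46.5 CPM in mock and 62.8 and 68.5 CPM with TNF (0.59 ± 0.07) and INSIG1, a brake on the pathway, up by 0.62 ± 0.08. In fatty acid synthesis SCD5, a desaturase, fell from 52.7 and 54.2 CPM to 33.0 and 32.5 CPM (−0.70 ± 0.06), while ELOVL7, an elongase, rose from 0.711 and 1.18 CPM to 6.94 and 5.80 CPM (2.84 ± 0.22). PLIN2, the coat protein of lipid droplets, rose from 90.3 and 86.4 CPM to 128 and 127 CPM (0.53 ± 0.05), and G0S2, an inhibitor of lipolysis, from 0.817 and 1.297 CPM to 6.12 and 5.69 CPM (2.55 ± 0.21). Both droplet genes and the elongase had TNF libraries above both mock libraries, a condition for naming them. Eicosanoid and phospholipase genes had 6 higher and 7 lower of 27 (5 and 9 under library totals). PTGES, the inducible prostaglandin E synthase, rose from 12.01 and 14.2 CPM to 29.5 and 33.7 CPM (1.28 ± 0.10, adjusted p = 1.26e-08) and PLA2G4C, a phospholipase, from 14.1 and 17.5 CPM to 47.6 and 47.8 CPM (1.62 ± 0.09). PLA2G12A, a secreted phospholipase, fell from 25.6 and 26.1 CPM to 17.1 and 18.6 CPM (−0.54 ± 0.08), and PLCB4, a phospholipase C, from 45.0 and 54.4 CPM to 35.04 and 35.1 CPM (−0.49 ± 0.08). Among glycosaminoglycan enzymes, 17 rose and 5 fell of 48 (12 and 7 under library totals), with 1 lower without TNF replicate 1 and 3 without TNF replicate 2 or mock replicate 2. HAS2, a hyaluronan synthase, was at 37.4 and 31.4 CPM in mock and 131 and 127 CPM with TNF, and genes linked to hyaluronan breakdown split, with TMEM2 up from 144 and 148 CPM to 274 and 263 CPM (0.88 ± 0.04) and CEMIP down from 774 and 1234 CPM to 539.8 and 579.5 CPM (−0.84 ± 0.16).

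Genes of transcription factors are given by family. The bZIP family, which includes the AP-1 proteins, held 45 tested genes, of which 25 rose, 3 fell and 17 did not pass (median 0.18), and 19 and 8 under library totals. JUNB went from 41.7 and 47.9 CPM to 137 and 148 CPM (1.67 ± 0.07, adjusted p = 8.57e-13), ATF3 from 2.63 and 2.37 CPM to 9.75 and 9.79 CPM (1.95 ± 0.15) and BATF2 from 1.81 and 1.75 CPM to 32.3 and 37.5 CPM (4.27 ± 0.21). NFE2L3, a relative of NRF2, went from 14.1 and 14.1 CPM to 44.4 and 44.8 CPM (1.66 ± 0.07, adjusted p = 2.86e-12), with the replicates nearly equal. ATF5, a factor of the stress response, went from 28.6 and 23.4 CPM to 54.5 and 57.6 CPM (1.09 ± 0.08). The large MAF factor gene MAF went the other way, from 6.50 and 8.06 CPM to 1.95 and 2.45 CPM (−1.74 ± 0.18, adjusted p = 4.41e-07). ETS factors had 9 higher and 2 lower of 19 (9 and 5 under library totals). ETV7 rose from 0.284 and 0.282 CPM to 14.0 and 19.4 CPM (5.83 ± 0.27), ETS1 from 109 and 109.5 CPM to 226 and 219.9 CPM (1.03 ± 0.05) and ELF1 from 40.7 and 48.2 CPM to 82.2 and 85.3 CPM (0.92 ± 0.07), while ETV1, which responds to growth factor signals, fell from 21.4 and 18.6 CPM to 10.3 and 12.6 CPM (−0.84 ± 0.11).

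The promoters of NFE2L3, ATF5 and MAF are shown as examples from both directions, each as the 250 bases before the start site in RefSeq's GRCh38.p14, read 5′ to 3′ on the gene's strand. NFE2L3 (chr7:26151948-26152197, plus strand) has an NF-κB consensus match on the opposite strand from position −91, in capitals. ATF5 (chr19:49928656-49928905, plus strand) has overlapping ISRE matches from positions −91 and −85. MAF (chr16:79600738-79600987, minus strand) has CCAAT boxes, searched as CCAAT on both strands and lying on the opposite strand here, from −163 and −82, and a TATA box, searched as TATAAA on both strands, from −30. Capitals mark only these matches, and the genes were picked after their values were seen.
NFE2L3: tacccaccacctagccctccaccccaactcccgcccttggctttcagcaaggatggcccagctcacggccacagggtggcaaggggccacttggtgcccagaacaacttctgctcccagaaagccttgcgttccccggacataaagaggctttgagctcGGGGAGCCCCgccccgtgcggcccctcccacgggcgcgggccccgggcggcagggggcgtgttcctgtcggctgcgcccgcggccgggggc
ATF5: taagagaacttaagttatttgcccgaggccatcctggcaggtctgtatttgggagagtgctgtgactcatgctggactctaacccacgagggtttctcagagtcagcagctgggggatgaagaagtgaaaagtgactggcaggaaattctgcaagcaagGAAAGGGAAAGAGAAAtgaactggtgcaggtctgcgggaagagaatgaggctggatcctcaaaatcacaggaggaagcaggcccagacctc
MAF: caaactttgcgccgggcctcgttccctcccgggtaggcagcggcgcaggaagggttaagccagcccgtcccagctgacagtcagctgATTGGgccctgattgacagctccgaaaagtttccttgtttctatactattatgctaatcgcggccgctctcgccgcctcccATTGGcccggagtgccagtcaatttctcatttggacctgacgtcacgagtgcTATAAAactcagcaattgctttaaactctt
CCAAT was present in 34.9% of promoters of tested genes and 31.7% of those lowered at least 2-fold, and in 33.0% of all RefSeq promoters. TATAAA was present in 5.78% of promoters of tested genes, 12.7% of those lowered, 10.9% of those raised outside the immune lists and 11.1% of all RefSeq promoters. GGGCGG, the GC box, was present in 65.8%, 49.3%, 54.1% and 42.3% of the same sets.

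A list of EMT, GLI, NFI, GATA, MEF2, NFAT and related zinc finger factors had 9 higher, 20 lower and 27 not passing of 56 (median −0.19), and 9 and 27 under library totals. TSHZ1, a teashirt zinc finger factor, went from 116 and 118 CPM to 62.6 and 59.9 CPM (−0.93 ± 0.05, adjusted p = 1.34e-10). NFIA, a nuclear factor I member, went from 13.0 and 13.2 CPM to 6.05 and 6.39 CPM (−1.08 ± 0.12). Replicates lay close together in both. The odd-skipped factors OSR1 and OSR2, which act in limb and joint formation, went from 16.9 and 13.6 CPM to 8.93 and 9.90 CPM (−0.73 ± 0.11) and from 42.2 and 46.9 CPM to 21.9 and 22.7 CPM (−0.99 ± 0.07). HOX genes, which set position along the body and limb axes, had 0 higher, 6 lower and 18 not passing of 24 (median −0.28), and 3 lower without TNF replicate 1. HOXA13, a factor of the distal limb, went from 62.4 and 69.8 CPM to 39.9 and 37.6 CPM (−0.76 ± 0.08, adjusted p = 3.85e-07), and HOXC10 went from 10.9 and 10.7 CPM to 7.57 and 6.86 CPM (−0.58 ± 0.12).

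Other homeobox and T-box factors had 14 higher and 13 lower of 56 (13 and 15 under library totals). MEIS2, a partner of HOX proteins, fell from 31.6 and 34.2 CPM to 20.4 and 22.7 CPM (−0.62 ± 0.08) and ALX4, a limb and skull factor, from 43.5 and 49.2 CPM to 25.3 and 25.6 CPM (−0.86 ± 0.07). The groups were apart in both, as the naming rule required. TBX5, which starts forelimb growth, fell from 70.1 and 73.8 CPM to 47.7 and 47.4 CPM (−0.59 ± 0.06). POU2F2, best known from B cells, rose from 31.8 and 31.4 CPM to 102 and 102 CPM (1.69 ± 0.06, adjusted p = 1.44e-13). Of the mesenchymal regulators on the panel, PRRX1 was at 276 and 276 CPM in mock and 303 and 311 CPM with TNF (0.15 ± 0.04, adjusted p = 0.013), and it did not pass under library totals, under upper-quartile scaling, at an adjusted p below 0.01 or without TNF replicate 2. TWIST1, SOX9 and RUNX2 did not pass the test. TWIST1 was at 31.1 and 29.2 CPM in mock and 28.5 and 29.4 CPM with TNF (−0.07 ± 0.07, adjusted p = 0.55). SOX9, the cartilage factor, was at 41.5 and 38.5 CPM in mock and 38.4 and 38.4 CPM with TNF (−0.06 ± 0.07, adjusted p = 0.596), and RUNX2, the bone factor, at 8.89 and 8.74 CPM and 7.83 and 7.72 CPM (−0.18 ± 0.13, adjusted p = 0.32).

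Nuclear receptors had 11 higher and 11 lower of 35 (9 and 14 under library totals, and 7 higher without either TNF library). NR2F1 and NR2F2, orphan receptors of mesenchymal tissue, fell, NR2F1 from 37.2 and 42.5 CPM to 17.5 and 22.5 CPM (−1.01 ± 0.10, adjusted p = 2.00e-07) and NR2F2 from 215 and 230.1 CPM to 137 and 144 CPM (−0.66 ± 0.05). PPARG, the fat cell regulator, went from 5.86 and 4.96 CPM to 2.91 and 2.82 CPM (−0.93 ± 0.16), and NR4A1, an early response gene, from 11.4 and 15.2 CPM to 8.26 and 8.09 CPM (−0.68 ± 0.14). VDR and NR3C1 moved the other way. VDR, the vitamin D receptor, rose from 32.2 and 38.6 CPM to 49.6 and 48.4 CPM (0.48 ± 0.07), and NR3C1, the glucocorticoid receptor, rose from 117 and 123 CPM to 145 and 147 CPM (0.29 ± 0.05, adjusted p = 1.05e-04). Among bHLH factors 13 rose and 10 fell of 47 (12 and 15 under library totals). MSC, a repressor also called musculin, rose from 3.73 and 4.57 CPM to 43.1 and 44.3 CPM (3.42 ± 0.10, adjusted p = 1.48e-14), and the clock factor NPAS2 from 19.4 and 17.8 CPM to 50.2 and 43.8 CPM (1.34 ± 0.08). Both rose over 2-fold. The inhibitor ID1, a target of BMP signals, fell from 381 and 385 CPM to 268 and 267 CPM (−0.52 ± 0.05), and SIM1 fell from 93.5 and 96.4 CPM to 68.2 and 67.1 CPM (−0.49 ± 0.05). KLF and SP factors had 9 higher and 2 lower of 20 (6 and 3 under library totals, and 5 higher without TNF replicate 2). KLF6 rose from 179 and 180.2 CPM to 316 and 305 CPM (0.79 ± 0.05), KLF2, a factor of quiescent endothelium, fell from 29.0 and 32.8 CPM to 19.6 and 21.4 CPM (−0.59 ± 0.08), and KLF4 was at 14.9 and 17.5 CPM in mock and 17.1 and 16.0 CPM with TNF (0.05 ± 0.11, adjusted p = 0.793). The KLF4 groups overlapped. ZNF genes, the largest family tested, had 38 higher and 29 lower of 484 (7.85% and 5.99%), below the shares of all genes. This balance turned under library totals, with 17 higher and 61 lower. Without TNF replicate 1 the counts were 19 and 18, and 19 rose without TNF replicate 2 and 25 without mock replicate 1.

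**Figure D4:**
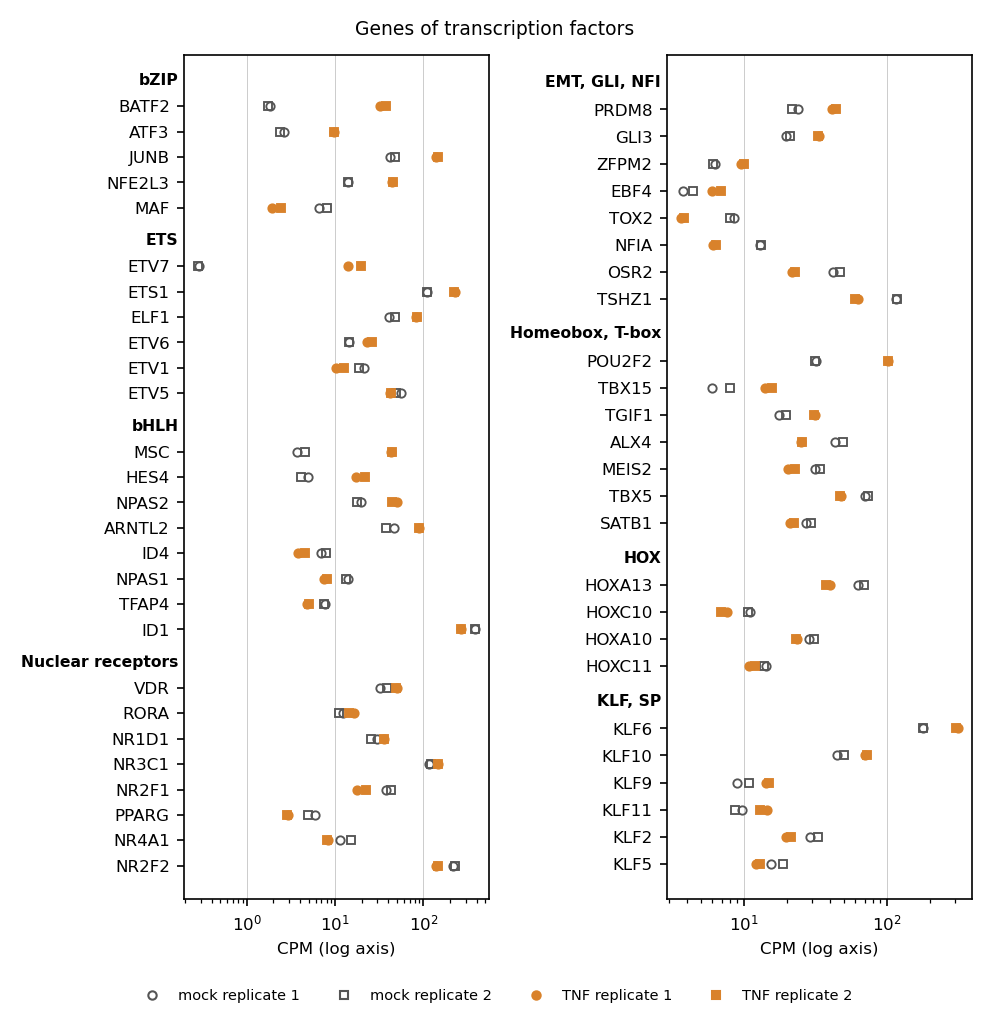
Levels in CPM (log axis) of the reported transcription factor genes with the largest changes, by family, in mock (open) and TNF libraries (filled), with circles for replicate 1 and squares for replicate 2. Genes that rose come before those that fell in each family, and under HOX all genes shown are lower with TNF.

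Contractile genes fell more often than they rose. They had 5 higher, 17 lower and 13 not passing of 35 (median −0.22), 1 and 20 under library totals, and 11 lower without mock replicate 2. The rises numbered 3 without TNF replicate 1, TNF replicate 2 or mock replicate 1. LMOD1, leiomodin of smooth muscle, went from 45.6 and 63.4 CPM to 23.3 and 22.7 CPM (−1.23 ± 0.12, adjusted p = 3.44e-07), with mock replicate 2 the highest. CNN1, calponin, went from 50.0 and 57.7 CPM to 34.1 and 34.8 CPM (−0.64 ± 0.08), and FLNC, a filamin of muscle, went from 3681 and 3665 CPM to 2701 and 2687 CPM (−0.45 ± 0.04). MYOCD, the coactivator that drives smooth muscle genes, moved against them, from 5.72 and 8.12 CPM to 19.01 and 20.8 CPM (1.56 ± 0.13, adjusted p = 2.34e-08). Keratins and intermediate filaments had 3 higher and 9 lower of 24 (3 and 10 under library totals, and 5 higher without mock replicate 1). KRT19, which makes up most of the epithelial marker sum given above, fell from 138 and 157 CPM to 71.8 and 70.7 CPM (−1.04 ± 0.08), and NES, nestin, fell from 456 and 419 CPM to 275 and 273 CPM (−0.68 ± 0.05). In bulk RNA, fewer cells with a transcript and less of it per cell cannot be told apart.

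In the matrix, VCAN, the proteoglycan versican, fell from 113 and 113 CPM to 68.3 and 69.5 CPM (−0.71 ± 0.05), LAMA2, a laminin chain of muscle and mesenchyme, from 64.8 and 74.8 CPM to 39.8 and 40.4 CPM (−0.79 ± 0.07), and CTGF, a matricellular target of TGF-β and YAP, from 593 and 715 CPM to 386 and 386 CPM (−0.76 ± 0.08). AGRN, agrin of basement membranes, rose from 309.7 and 336 CPM to 823 and 904 CPM (1.42 ± 0.06, adjusted p = 1.37e-12), as did LAMB3, an epithelial laminin chain, from 19.5 and 16.9 CPM to 38.0 and 35.4 CPM (1.00 ± 0.08). The matrix glycoprotein list had 18 higher and 26 lower of 71 (16 and 31 under library totals). Collagens had 7 higher and 9 lower of 33 (6 and 14 under library totals), with 3 lower without TNF replicate 1 or mock replicate 2. Cell adhesion and junction genes had 20 higher and 7 lower of 52 (15 and 10 under library totals, and 13 higher without TNF replicate 1). CLDN1, a tight junction claudin, rose from 2.84 and 2.93 CPM to 48.8 and 45.7 CPM (4.04 ± 0.10, adjusted p = 2.12e-15), and PCDH18, a protocadherin, fell from 92.1 and 113 CPM to 50.4 and 46.1 CPM (−1.07 ± 0.10).

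Growth factor genes rose more often than they fell, 22 higher, 8 lower and 17 not passing of 47 (median 0.26), with 22 and 9 under library totals. The falls numbered 4 without TNF replicate 1 and 5 without mock replicate 2. VEGFC, a lymphatic growth factor, went from 231 and 214 CPM to 566 and 587 CPM (1.37 ± 0.05, adjusted p = 1.09e-13). TGFA and HBEGF, ligands of EGFR, went from 14.4 and 12.9 CPM to 52.4 and 46.4 CPM (1.85 ± 0.08) and from 8.46 and 7.89 CPM to 18.5 and 18.1 CPM (1.16 ± 0.09). FGF7, a fibroblast factor for epithelia, went from 43.3 and 42.0 CPM to 79.0 and 87.0 CPM (0.95 ± 0.06), and ANGPTL4, an inhibitor of lipoprotein lipase, from 6.22 and 6.15 CPM to 10.4 and 13.5 CPM (0.93 ± 0.13). No library of either group crossed into the other in these genes, a condition for naming genes by the size of their change. IGFBP5, an IGF-binding protein, fell from 556 and 579.7 CPM to 374 and 377 CPM (−0.60 ± 0.05), and the neurotrophin BDNF from 44.7 and 48.8 CPM to 32.9 and 29.5 CPM (−0.57 ± 0.07).

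Signals of development also shifted. In the Hedgehog pathway, PTCH1, a receptor that is also a target of the pathway, fell from 8.49 and 9.92 CPM to 3.87 and 4.26 CPM (−1.18 ± 0.14, adjusted p = 3.73e-06), and SMO, the signal transducer, fell from 15.2 and 17.1 CPM to 7.93 and 9.42 CPM (−0.91 ± 0.10). GLI2, an activating effector, fell from 40.9 and 45.2 CPM to 31.5 and 34.0 CPM (−0.40 ± 0.08), and GLI3, the effector with a strong repressor form, rose from 19.7 and 20.9 CPM to 33.6 and 33.0 CPM (0.72 ± 0.07). The groups were apart in all 4 genes, as the naming rule required. In the Notch pathway, NOTCH3 fell from 92.9 and 101 CPM to 61.2 and 56.0 CPM (−0.72 ± 0.06) and NOTCH2 rose from 451 and 445 CPM to 627 and 609 CPM (0.46 ± 0.04). The combined Notch and Hedgehog list had 9 higher and 8 lower of 26 (8 and 9 under library totals). WNT genes had 6 higher and 8 lower of 36 (4 and 11 under library totals, and 5 lower without TNF replicate 1). Frizzled receptor genes moved in both directions. FZD8 rose (log2 fold change 0.52), and so did FZD6, which lost its call in 8 of 15 alternative settings. FZD2, FZD4 and FZD7 fell, FZD4 from 33.0 and 36.5 CPM to 18.9 and 18.7 CPM (−0.88 ± 0.08) and FZD7 from 117 and 141 CPM to 76.3 and 75.8 CPM (−0.76 ± 0.07). FZD7 was higher in mock replicate 2 than in mock replicate 1, and both lay above the TNF libraries. In the TGF-β family, BMP2 rose from 5.90 and 5.92 CPM to 17.3 and 18.8 CPM (1.60 ± 0.11), INHBA, the activin subunit, rose from 36.5 and 38.5 CPM to 109.9 and 109 CPM (1.55 ± 0.06, adjusted p = 2.58e-13), and BMP4 fell from 6.26 and 6.37 CPM to 3.80 and 4.10 CPM (−0.68 ± 0.16). The receptor gene TGFBR2 rose from 194 and 195 CPM to 283 and 281 CPM (0.53 ± 0.04).

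Feedback regulators of kinase and G protein signalling had 6 higher, 17 lower and 23 not passing of 46 (median −0.10), with 4 and 18 under library totals. The falls numbered 9 without TNF replicate 1, 10 without TNF replicate 2 and 11 without mock replicate 2. RGS4, a brake on G protein signals, fell from 18.1 and 16.2 CPM to 8.56 and 9.05 CPM (−0.98 ± 0.11), and the ERK phosphatases DUSP4 and DUSP6 fell, from 54.3 and 47.9 CPM to 35.2 and 36.1 CPM (−0.53 ± 0.07) and from 46.7 and 49.6 CPM to 32.5 and 36.1 CPM (−0.50 ± 0.07). SOCS1, an inhibitor of JAK kinases, rose from 6.47 and 7.4995 CPM to 19.1 and 21.2 CPM (1.54 ± 0.11, adjusted p = 3.40e-09), and SOCS2 fell from 24.3 and 29.7 CPM to 18.3 and 18.0 CPM (−0.56 ± 0.09).

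Mitosis genes had 26 higher, 0 lower and 24 not passing of 50 (median 0.21), all by less than 2-fold. That count was 17 under library totals, 12 without TNF replicate 1 and 17 without mock replicate 2, and mock replicate 1 lay above mock replicate 2 in UBE2C, a ubiquitin enzyme of anaphase, which went from 39.6 and 30.6 CPM to 48.4 and 45.9 CPM (0.41 ± 0.09). CDK6, a kinase of early cell cycle entry, rose from 162 and 169 CPM to 283 and 287 CPM (0.79 ± 0.04, adjusted p = 8.47e-11), and CCND2, cyclin D2, fell from 68.5 and 74.0 CPM to 45.8 and 45.8 CPM (−0.63 ± 0.06). Both had groups far apart relative to their replicates. Histone genes had 13 higher and 0 lower of 42, with HIST2H2BE at 17.1 and 19.8 CPM in mock and 30.8 and 34.8 CPM with TNF (0.83 ± 0.08). Histone transcripts mostly lack poly(A) tails and have similar copies, so their values in poly(A) libraries are uncertain. Genes of endoplasmic reticulum stress and folding had 17 higher and 1 lower of 27 (8 and 1 under library totals), and 8 higher without TNF replicate 2 and 10 without mock replicate 1. ERN1, a sensor of unfolded protein also called IRE1, rose from 25.7 and 23.2 CPM to 65.4 and 65.2 CPM (1.41 ± 0.07, adjusted p = 1.45e-11), and its target XBP1 rose from 88.1 and 98.5 CPM to 123 and 134 CPM (0.46 ± 0.06).

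**Figure D5:**
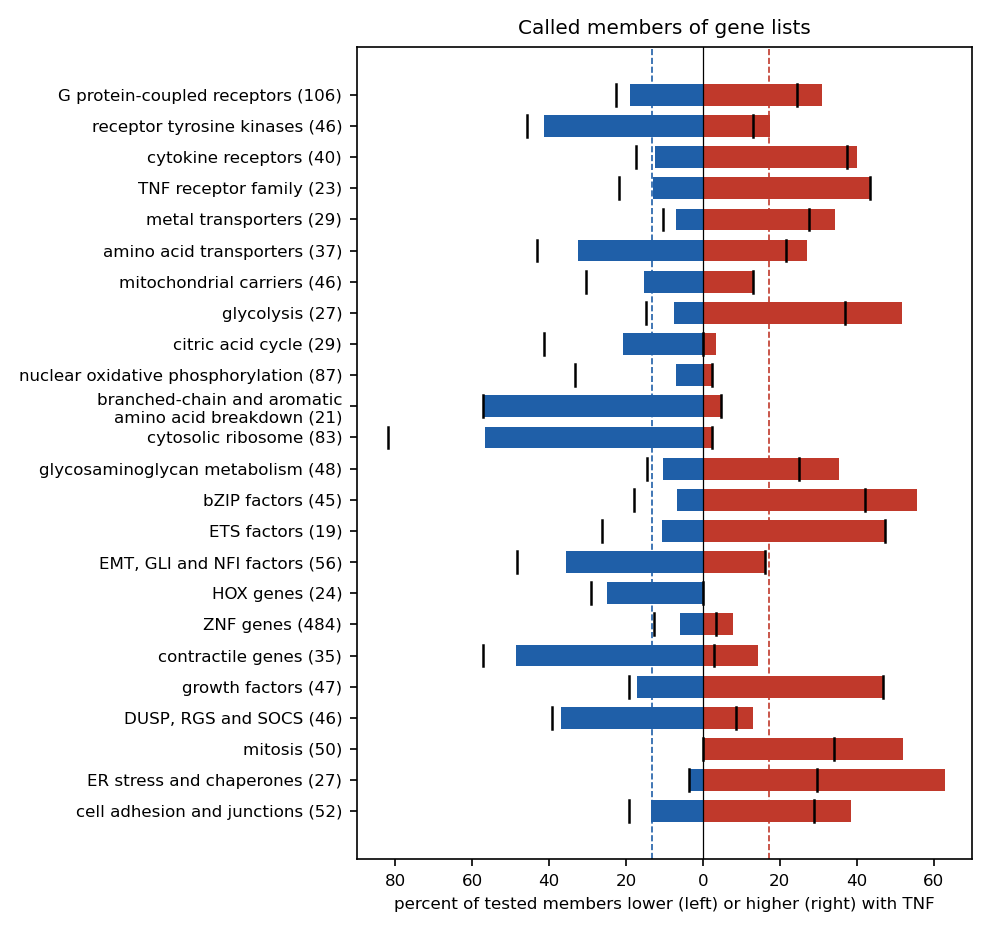
Percent of tested members called lower (blue, left) or higher (red, right) with TNF in 24 gene lists, with the number tested in brackets. Dashed lines mark the shares over all genes, 13.3% lower and 17.2% higher, and black ticks the shares under library totals. The amino acid breakdown and ribosome lists reach furthest to the left.

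Under the same limit of 5 CPM with TNF, the largest rises outside the immune lists started from low mock levels. After IL4I1, ETV7, CYP7B1 and CLDN1, they included RRAD, a small GTPase that blocks calcium channels, from 3.02 and 3.78 CPM to 48.1 and 45.8 CPM (3.82 ± 0.12, adjusted p = 6.69e-14). CTSS, a lysosomal cysteine protease, went from 5.15 and 5.53 CPM to 55.8 and 68.6 CPM (3.54 ± 0.11). LCP1, an actin-bundling protein of leukocytes, went from 4.44 and 4.91 CPM to 40.6 and 36.5 CPM (3.06 ± 0.10), MTSS1, a membrane-bending scaffold, from 5.33 and 4.74 CPM to 36.7 and 35.9 CPM (2.83 ± 0.11), and THEMIS2, a signalling protein of immune cells, from 2.67 and 3.61 CPM to 24.6 and 29.1 CPM (3.13 ± 0.14). LCP1 and THEMIS2 are best known from blood cells, whose listed markers summed to the levels given above. The TNF libraries were over 5-fold above either mock library in each. C15orf48, a mitochondrial subunit gene, rose from 2.45 and 3.78 CPM to 26.4 and 25.3 CPM (3.12 ± 0.14), and MRGPRX3, a receptor related to itch receptors, from 2.31 and 1.58 CPM to 17.7 and 18.1 CPM (3.14 ± 0.14). TLR3, a sensor of double-stranded RNA, rose from 2.17 and 3.38 CPM to 17.8 and 25.9 CPM (3.01 ± 0.22), with TNF replicate 2 above TNF replicate 1. The rest of the 20 were GRIP2, SLC15A3, MSC, GPRC5B, GCH1, KCNJ15, ODF3B and ELOVL7.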

How the data were processed

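RNA of MH7A cells was sequenced in 8 libraries, 2 for each of 4 groups. The authors deposited a table of gene counts, whole numbers that are not normalized, for 38173 gene symbols. The reads were processed with STAR 2.7.0 and featureCounts, per the submitters' processing notes, which also name the builds mm10 and hg19 without saying which step used them. The sources used here give no version of featureCounts. Counting on a strand is not stated.

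Groups came from the sample labels. Genes with enough counts were kept with filterByExpr, leaving 16647, and libraries were scaled with TMM. The contrast of TNF against mock was tested in 1 quasi-likelihood fit over all 8 libraries (edgeR 4.0.16, limma 3.58.1, R 4.3.3), with Benjamini-Hochberg adjustment over all genes tested, and a gene was called below an adjusted p of 0.05. Values after ± are standard errors of log2 fold changes with 2 libraries in each group. Every adjusted p in the text is from this edgeR fit. The common biological coefficient of variation was 4%, with 4 residual degrees of freedom per gene. A level of 3 counts corresponds to 0.0992 to 0.208 CPM in these libraries and covers counting error only. Whether replicates were grown as separate cultures is not said in the labels, and the p-values then describe only how these libraries spread, which may be technical.

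Named genes were a panel, the 20 largest changes in each direction among called genes whose higher group averaged 5 CPM or more and whose groups did not overlap, and up to 5 called genes per direction from each of 87 gene lists other than immune and marker lists, under the same limits. The members, lists and promoters shown were chosen with earlier results of these data known, so no list count is independent support for its direction. Some genes that the rule picked are not reported here. Genes with near-identical copies may share reads. Promoters were RefSeq entries of GRCh38.p14, matched by symbol for 11503 tested genes, with the first listed start of each gene and the 250 bases before it; the coordinates are not of the build named for the counts. On simulated counts for 16277 genes with known changes, the same fit called 47 of 65 at a true 1.5-fold change. It called 54 of 67 at 2-fold, 61 of 64 at 4-fold, and 10 of 16081 with no change. The simulation changed a far smaller share of genes than was called in the data. It also gave all groups the same spread, whereas mock replicates differed more than those of other groups. These rates may therefore not hold for this contrast. The alternatives were other scalings and filters, DESeq2 1.42.0, limma-voom, a replicate term and a stricter threshold. Further ones were equal depth, a fit of only the 4 mock and TNF libraries, and leaving out each library.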

Additional observations from a re-analysis of the deposited data

Results flagged for a closer look

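The fall of TNFRSF10D with TNF differed between cells with and without Tub B. The log2 fold change was −1.62 ± 0.08 for TNF against mock and −0.48 ± 0.08 for TNF with Tub B against Tub B alone, a difference of 1.14 ± 0.11 (interaction term in edgeR, adjusted p = 8.79e-06). Its level was 168 and 162 CPM with Tub B alone and 118 and 118 CPM with both agents, against 145 and 122 CPM in mock and 47.6 and 38.7 CPM with TNF alone. Both libraries with Tub B and TNF lay above both libraries with TNF alone. Over all genes, 4.23% had such a difference at an adjusted p below 0.05. The interaction was examined for the 12 most lowered genes at a mean of 5 CPM or more in mock. TNFRSF10D was the only gene among them to pass. The 12 were chosen for their fall with TNF alone, which is part of the difference, so the share over all genes is no fair comparison.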

How the results depend on the processing

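The count of falls depended more on the processing than the count of rises. DESeq2 called 3301 genes, 1320 of them lower and 138 lower by at least 2-fold. A fit of only the 4 mock and TNF libraries called 4483 genes, 2514 higher and 1969 lower. At an adjusted p below 0.01, 1364 genes were lower, 155 of them by at least 2-fold. Library totals gave 3474 lower genes and upper-quartile scaling 3356. Leaving out 1 library at a time gave 3493 to 4481 called genes and 1357 to 1894 lower genes, the fewest without TNF replicate 1. In TNF with Tub B against Tub B, lower genes numbered 1264 at an adjusted p below 0.01, 1259 with DESeq2 and 1311 to 1516 with 1 library left out, the fewest without replicate 1 of TNF with Tub B. The cause was not tested.

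Of 641 genes named by the rule and reported, some panel genes were not called in the main fit. The counts of genes not passing in this paragraph are of genes called there that lost their call. These numbered 99 in DESeq2, 91 at the stricter threshold, 42 under library totals and 37 under upper-quartile scaling. At equal depth they numbered 48, and with only the 4 mock and TNF libraries 40. Without 1 library 53 to 101 did not pass, the most without TNF replicate 1. Signs turned only for genes not called with all libraries: KLF4 was −0.025 under library totals, −0.016 under upper-quartile scaling and −0.027 at equal depth. With 1 library left out KLF4 ranged from −0.077 to 0.157, HIF1A from −0.023 to 0.202 and SLC2A1 from −0.099 to 0.0034. HIF1A passed as higher without mock replicate 2, at the top of its range. KLF4 was −0.00024 without TNF replicate 1.

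The labels do not say whether equal replicate numbers mark a shared culture or batch. Deviations of same-numbered mock and TNF libraries correlated at 0.234 across 9928 genes. Those of TNF with Tub B correlated at 0.237 with mock and 0.171 with TNF. Pairs that include Tub B alone correlated at −0.119 to 0.0883. Whether the numbers mark shared cultures was not settled. With the replicate block 5368 genes were called, 3002 higher and 2366 lower, 924 of them at least 2-fold, and 4671 in the Tub B contrast. All 641 named genes kept their side of the threshold in this pairing. With 2 libraries a group, small changes of low genes could not be detected.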
